A study of Mus musculus with 7 samples.

Results

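The genes described here are 10 mouse liver genes, outside the large cytochrome, urinary protein and sulfotransferase families, whose levels differ between adult males and females under the control of growth hormone. Known as male-biased in mouse liver are Elovl3, Moxd1, Selenbp2, Susd4 and, in some strains, C4a. Known as female-biased are Hao2, Prlr, Ntrk2, A1bg and Prom1. The 10 genes were looked for by gene symbol, current or older (C4a as Slp, Hao2 as Hao3). The search covered the probes of an Illumina mouse bead array that the annotation gives to 1 gene. This gave 18 probes for 9 of the 10 genes, out of 45281 probes in all. No probe with the name Prlr was listed, and that gene, the prolactin receptor, was not analysed here. Liver RNA of 7 male C57BL/6J mice at postnatal day 28 was measured, 1 array per animal. By the sample titles, 3 livers came from offspring whose mothers had free access to 10% ethanol (v/v), from fertilization to gestational day 8.5, and 4 were controls. The treatment text was the same on every sample, controls included, so groups rest on the titles. The labels number replicates without naming litters or dams, so p-values measure only the spread between these animals.

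Growth hormone is released in pulses in male rodents and more evenly in females, and hepatocytes read this difference through the growth hormone receptor, the kinase JAK2 and the transcription factor STAT5. Pulses of active STAT5 favour male-biased genes, while steady exposure favours female-biased ones. In mice the sex differences of the liver develop around puberty, and androgens act on them mainly through the pituitary. Some of these genes handle lipids (Elovl3, Hao2), others encode secreted or surface proteins (C4a, A1bg, Susd4, Ntrk2, Prom1).

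Values are the authors' deposited intensities, which are on a linear scale, had a background subtracted and can be negative. A probe counted as above background on an array where it exceeded 3 times the noise of that array, a limit of 21.3 to 26.9 units. Fold changes are on a log2 scale, ethanol minus control, after adding an offset that understates the change of dim probes, and are given with the standard error (SE). P-values are two-sided from limma, adjusted over all 23829 tested probes. The male label held in every animal. Eif2s3y, a Y-linked gene, had 679 to 721 units in ethanol livers and 762 to 945 units in control livers, and no Xist probe was above background on any array. Of 7 hepatocyte markers 6 were above background on every array. Across tested probes the correlation between arrays ranged from 0.988 to 0.990 within the ethanol group, 0.987 to 0.995 within the control group and 0.981 to 0.992 across groups.

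Of the 18 probes, 6 were above background on all 7 arrays, covering Hao2, A1bg, Selenbp2 and C4a. A further 3 probes, of Elovl3, Susd4 and Ntrk2, were above background on some arrays, and 9 were above background on none. Moxd1 and Prom1 were represented only by probes of this last kind. A total of 11 probes of 8 genes passed the filter on dim probes, which kept probes brighter than the median of their array on 3 or more arrays. Elovl3 did not pass. In limma 0 of the 11 probes passed the threshold of 0.05 after adjustment, where 0.021% of all tested probes did (5 of 23829). At an unadjusted p under 0.05 in limma there were 3 of the 11 probes, those of Hao2, Selenbp2 and C4a, where 8.8% of all tested probes reached that level.

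**Figure D1:**
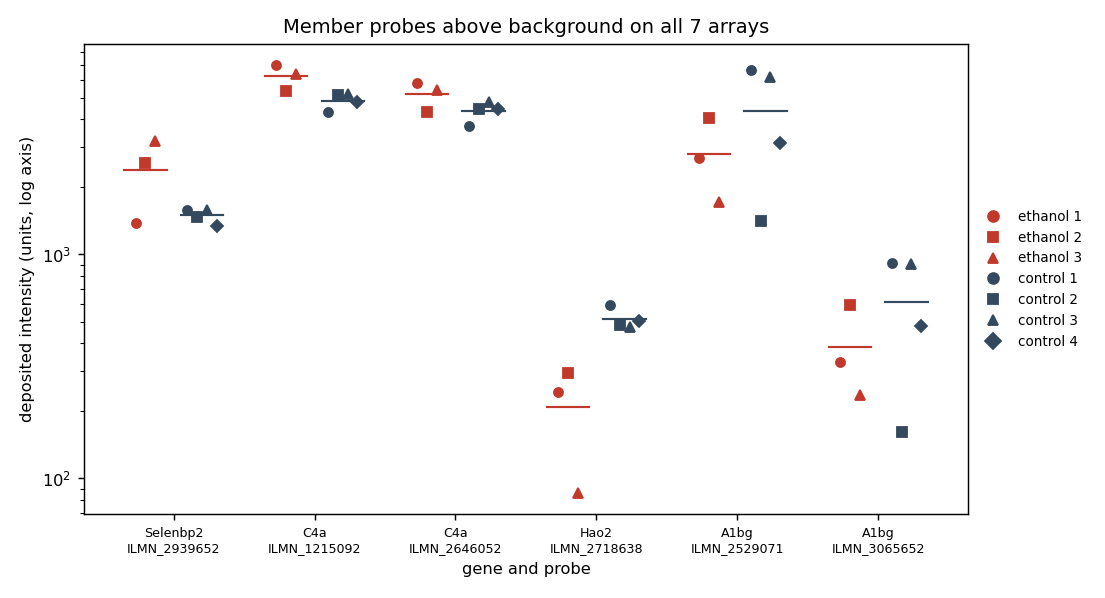
Deposited intensity (units, log axis) of the 6 member probes above background on all 7 arrays. Each point is 1 animal, ethanol in red at the left and control in dark blue at the right of each probe, and lines are group means. The 3 ethanol values of Hao2 lie between 85.9 and 296, below all 4 control values, while the control values of A1bg spread more widely than the group means differ.

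Hao2 encodes a peroxisomal oxidase of medium- and long-chain 2-hydroxy acids and is female-biased in mouse liver. Its probe gave 242, 296 and 85.9 units in ethanol livers 1, 2 and 3, against 592, 484, 473 and 503 units in control livers 1 to 4. Every ethanol animal was below every control animal, and ethanol 3 was lowest. The means were 208 ± 109 (SD, n = 3) in ethanol livers and 513 ± 54.3 (SD, n = 4) in control livers. The log2 fold change was -1.15 ± 0.23 (SE), with a 95% interval of -1.66 to -0.63 and an adjusted p of 0.281 in limma, so it did not pass. It ranked 40 by p among the tested probes. Without ethanol 3 the log2 fold change was -0.78. In limma the adjusted p was between 0.149 and 0.638 over the 14 alternatives tried. Counts of groups without overlap, here and below, were made on normalized log2 levels. Groups without overlap and with lower ethanol values were found for 1 of the 11 member probes, that of Hao2, and for 4.6% of all tested probes. The opposite, higher ethanol values without overlap, was found for 0 of the 11 and for 4.12% of all. In deposited units, C4a probe ILMN_1215092 had every ethanol value above every control value. In RNA from whole liver, fewer cells of a type and less RNA per cell cannot be told apart.

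Hao1, which encodes the glycolate oxidase related to Hao2, had overlapping groups. Its brightest probe gave 5843, 6853 and 7299 units in ethanol livers, against 6292, 6013, 5685 and 5995 units in control livers. The log2 fold change was 0.12 and did not pass in limma (adjusted p 0.776).

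A1bg encodes alpha-1-B glycoprotein, a plasma protein of the immunoglobulin superfamily, made in mice mainly by female liver. Its brighter probe, ILMN_2529071, gave 2688, 4042 and 1708 units in ethanol livers 1, 2 and 3, against 6648, 1412, 6166 and 3142 units in control livers 1 to 4. The second probe, ILMN_3065652, gave 331, 596 and 235 units in ethanol livers, against 916, 160 and 906 units in control livers 1 to 3 and 478 units in control 4. The order of the 7 animals was the same at both probes, with control 1 and control 3 highest and control 2 lowest, so the ethanol values lay inside the control range. Between the highest and the lowest control animal the intensity differed 4.71-fold at the first probe and 5.71-fold at the second.

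The spread of A1bg among control animals, an SD of 1.05 in log2 level at the brighter probe and 0.99 at the second, was far above the median of 0.12 over all tested probes. Only 0.0839% and 0.105% of tested probes had a larger SD in the control group. The log2 fold changes of A1bg were -0.48 ± 0.47 and -0.45 ± 0.45 (SE), with adjusted p-values of 0.815 and 0.819 in limma. The 95% interval at the brighter probe ran from -1.52 to 0.55, on both sides of 0. Without control 2 the log2 fold changes were -0.95 and -0.91. At the brighter probe it was -0.20 without ethanol 3, -0.19 without control 1 and -0.24 without control 3, and without ethanol 2 it was -0.75 at both probes.

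**Figure D2:**
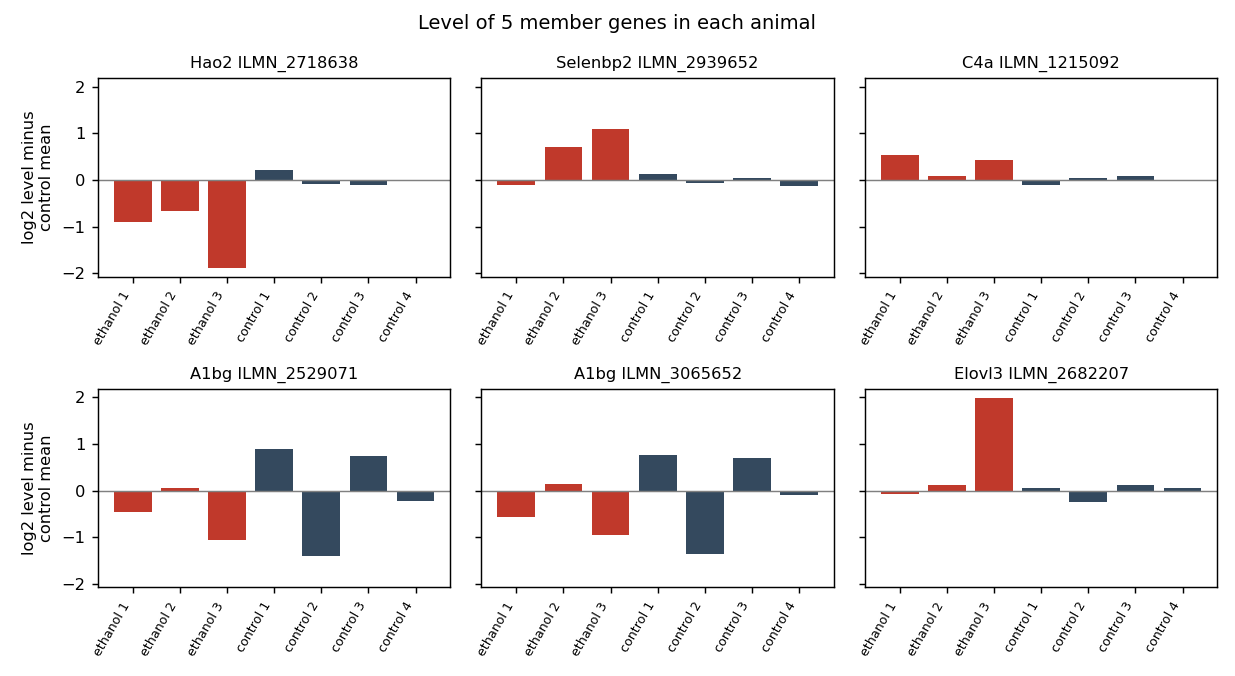
Normalized log2 level minus the control mean for 6 probes of 5 member genes, 1 bar per animal, ethanol in red at the left and control in dark blue at the right. Ethanol 3 stands at -1.87 for Hao2, 1.08 for Selenbp2 and 1.98 for Elovl3, and the bars of the A1bg probes rise and fall together over the 7 animals.

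The sequences before the start sites of Hao2 and A1bg are shown because these were the female-biased genes above background on every array, 1 separating the groups and 1 varying within them. They are the 250 bases before the annotated start, from RefSeq on the mouse build GRCm38.p6, 5′ to 3′ on the gene's strand, for Hao2 chr3:98893231-98893480 (minus strand) and for A1bg chr15:60921271-60921520 (minus strand). Capitals mark matches to a STAT5-type motif, TTCNNNGAA, which reads the same on both strands, and to a motif of ONECUT and CUX factors, ATCAAT or its reverse complement ATTGAT.
Hao2: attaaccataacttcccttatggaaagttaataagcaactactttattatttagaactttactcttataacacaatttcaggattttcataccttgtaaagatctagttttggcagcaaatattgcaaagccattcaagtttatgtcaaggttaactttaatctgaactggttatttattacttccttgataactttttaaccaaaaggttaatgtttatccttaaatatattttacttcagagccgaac
A1bg: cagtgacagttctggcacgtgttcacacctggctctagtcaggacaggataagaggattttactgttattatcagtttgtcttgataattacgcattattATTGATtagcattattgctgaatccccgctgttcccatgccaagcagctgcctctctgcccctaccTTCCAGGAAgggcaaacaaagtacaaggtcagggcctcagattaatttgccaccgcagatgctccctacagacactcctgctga
The A1bg window held TTCCAGGAA at bases 167 to 175, counted from the 5′ end, and ATTGAT at bases 101 to 106, and the Hao2 window held neither motif. Of 12 such windows of 8 member genes, 3 held the STAT5-type motif, 1 each of Moxd1, Prlr and A1bg, where 7.02% of all 32851 windows did. The ONECUT motif was in 1 of the 12, that of A1bg, and in 6.72% of all windows. The table holds no entry for Elovl3 and C4a. The 2 motifs did not overlap in the A1bg window, and a match of letters is a description only.

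Ntrk2 and Prom1, the other female-biased genes with probes, were near background. Ntrk2 encodes TrkB, the receptor of brain-derived neurotrophic factor. Its brightest probe, ILMN_3138904, gave 32.5, 25.8 and 83.6 units in ethanol livers 1 to 3, against 67.9, 23.8, 45.7 and 12.5 units in control livers 1 to 4. The groups overlapped, and 2 of 3 ethanol and 2 of 4 control livers were above background. The log2 fold change was 0.13 ± 0.20 (SE), with an interval of -0.30 to 0.57 and an adjusted p of 0.886 in limma. The other 3 Ntrk2 probes were above background on no array. Prom1 encodes prominin-1, a membrane protein of cell protrusions that also marks bile duct and progenitor cells. Its 3 probes were above background on no array, and its tested probe had a log2 fold change of 0.04 ± 0.10 (SE). Of 6 bile duct markers with a probe, Krt19, Epcam, Cftr and Pkhd1 were not above background on any array at their brightest probe, and Krt7 was above it in 0 of 3 ethanol and 2 of 4 control livers. Sox9 was above background on every array, with 248, 425 and 497 units in ethanol livers, against 656, 343, 230 and 173 units in control livers.

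**Figure D3:**
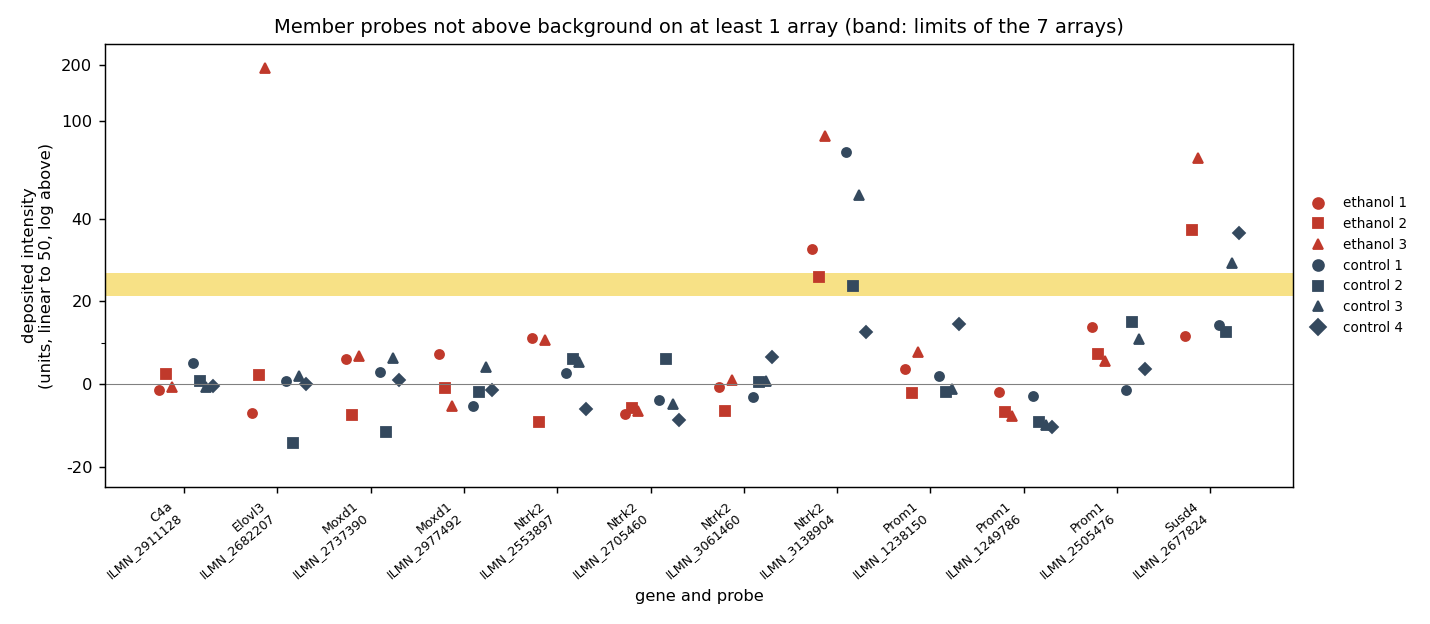
Deposited intensity (units, linear up to 50 and log above) of the 12 member probes that were not above background on at least 1 array. Points are animals, ethanol in red at the left and control in dark blue at the right, and the yellow band spans the background limits of the 7 arrays. Elovl3 in ethanol 3, at 192 units, stands clear of the band while its other 6 values lie below it.

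Selenbp2 encodes a selenium-binding protein of liver cytosol known as a target of acetaminophen in mice, and is male-biased. Its probe gave 1382, 2552 and 3200 units in ethanol livers 1, 2 and 3, against 1582, 1470, 1569 and 1340 units in control livers 1 to 4. Ethanol 2 and ethanol 3 were above every control animal, and ethanol 1 lay inside the control range. The means were 2378 ± 921 (SD, n = 3) in ethanol livers and 1490 ± 112 (SD, n = 4) in control livers. The log2 fold change was 0.56 ± 0.22 (SE), with a 95% interval of 0.08 to 1.04 and an adjusted p of 0.527 in limma. It depended on single animals. Leaving out ethanol 1 gave 0.89, which passed in limma (adjusted p 0.0470), and leaving out ethanol 3 gave 0.30 (adjusted p 0.812). Over the 14 alternatives tried, the adjusted p of Selenbp2 ran from 0.0470 to 0.812.

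C4a, called Slp for sex-limited protein, encodes a paralog of complement component C4 that is driven by androgen in some mouse strains. Whether this holds in the strain used here was not tested. Probe ILMN_1215092 gave 6973, 5377 and 6371 units in ethanol livers 1 to 3, against 4311, 5121, 5171 and 4809 units in control livers 1 to 4. Every ethanol intensity was above every control intensity, but after quantile normalization ethanol 2 fell just inside the control range, at 0.08 above the control mean in log2 level against 0.09 in control 3. The log2 fold change was 0.34 ± 0.11 (SE), with an interval of 0.10 to 0.59 and an adjusted p of 0.465 in limma. Probe ILMN_2646052 gave 5820, 4323 and 5423 units in ethanol livers, against 3726, 4470, 4781 and 4475 units in control livers, with overlapping groups and a log2 fold change of 0.22 ± 0.12 (SE). This was 0.12 without ethanol 1 and 0.37 without ethanol 2, and did not pass in either. The third C4a probe, ILMN_2911128, ran from -1.49 to 2.44 units in ethanol livers and from -0.876 to 5.11 units in control livers, so it was not above background on any array.

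C4b, the near-identical gene for active complement C4, had 5280, 3989 and 4549 units in ethanol livers at its brightest probe, against 2678, 3662, 3510 and 3480 units in control livers. Its log2 fold change was 0.43, with an adjusted p of 0.428 in limma. Ethanol 1 was highest and control 1 lowest at this C4b probe and at both bright C4a probes. Probe sequences were not used here, so signal of C4a and of C4b cannot be told apart at these probes. Expression of C4a itself was therefore not shown.

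Elovl3 encodes an enzyme of the endoplasmic reticulum that elongates very long chain fatty acids, and in mouse liver it is male-biased and follows the time of day. Its probe gave -6.93, 2.05 and 192 units in ethanol livers 1, 2 and 3, against 0.595, -14.2, 1.84 and 0.0775 units in control livers 1 to 4. Only ethanol 3 was above background. The ethanol mean was at least 1.14-fold higher than the dimmest control-array signal that still counted as above background, on the normalized scale, and this rests on 1 of 3 ethanol livers. The probe was not tested in the filtered fit. Without the filter its log2 fold change was 0.67 ± 0.36 (SE), with an adjusted p of 0.751 in limma.

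Of 5 other fatty acid elongases tested, Elovl1, Elovl5 and Elovl2 had groups without overlap at their brightest probe, and none passed. Elovl1, of saturated and monounsaturated chains, had 1966, 1964 and 2270 units in ethanol livers, against 1523, 1706, 1767 and 1521 units in control livers, with a log2 fold change of 0.33 (adjusted p 0.428 in limma). At the other tested Elovl1 probes, dimmer but above background on every array, the groups overlapped. Their log2 fold changes were 0.49, 0.40 and 0.20. Elovl5, of polyunsaturated chains, had 21495, 20980 and 26042 units in ethanol livers, against 17908, 17407, 19223 and 18789 units in control livers, with a log2 fold change of 0.26 (adjusted p 0.533 in limma). Elovl2, also of polyunsaturated chains, had 965, 878 and 1015 units in ethanol livers, against 1055, 1057, 1164 and 1160 units in control livers, with a log2 fold change of -0.21 (adjusted p 0.542 in limma). Over all tested genes, 4.17% were higher and 4.8% lower without overlap. None of the tested probes of Elovl1, Elovl2, Elovl5, Elovl6 and Elovl7 passed the threshold in limma.

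Susd4 and Moxd1, the other male-biased genes, gave little signal. Susd4 encodes a membrane protein with sushi domains that restrains complement. Its probe gave 11.6, 37.3 and 63.5 units in ethanol livers 1 to 3, against 14.3, 12.5, 29.4 and 36.6 units in control livers 1 to 4. The groups overlapped, with ethanol 3 highest, and 2 of 3 ethanol and 2 of 4 control livers were above background. The log2 fold change was 0.19 ± 0.16 (SE), with an interval of -0.16 to 0.54 and an adjusted p of 0.784 in limma. Without ethanol 3 it was 0.01, and without ethanol 1 it was 0.38. Moxd1 encodes a copper-dependent monooxygenase related to dopamine beta-hydroxylase. Its 2 probes ran from -11.5 to 7.13 units over the 7 livers and were above background on none. A difference in Moxd1 was therefore not detectable on these arrays.

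**Figure D4:**
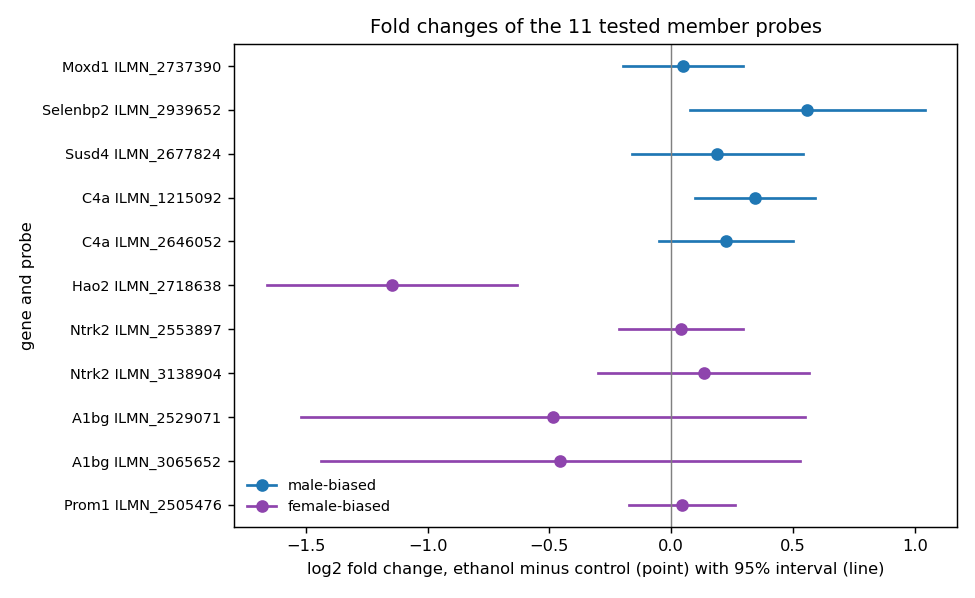
Log2 fold change, ethanol minus control, of the 11 tested member probes with its 95% interval from limma. Blue marks genes known as male-biased and purple those known as female-biased, and the intervals of Hao2, Selenbp2 and C4a ILMN_1215092 lie on 1 side of 0 while the other 8 include it.

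Among the 8 genes tested, on the brightest probe of each, the 4 male-biased genes had positive log2 fold changes, with a median of 0.27. Of the 4 female-biased genes, Hao2 and A1bg had negative and Ntrk2 and Prom1 positive values, with a median of -0.22. The median over all 12769 tested genes was -0.00141, with 6326 higher and 6443 lower. Genes tested here had passed the filter on dim probes, and 3 of the tested member probes were above background on no array. These were the tested probes of Moxd1 and Prom1, and ILMN_2553897 of Ntrk2. The signs of Moxd1 (0.05) and Prom1 (0.04) in these counts therefore rest on values at background. Signal of C4a was not told apart from that of C4b, and a male bias of C4a in this strain was not tested. Its place among the male-biased genes therefore rests on the probe annotation and on other strains. Of the 8 member genes, in normalized log2 level, 0 were higher without overlap between groups and 1 was lower, where 4.17% and 4.8% of all tested genes were.

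Sex-biased genes of the large families and of other kinds, from lists that leave out the 10 genes, had larger median log2 fold changes, a difference that was not tested. Of 18 other male-biased genes 16 were tested, all 16 were higher in ethanol livers, and the median log2 fold change was 1.06. Slco1a1, among them at 0.07, was above background on no array. By limma 1 of the 16 passed the threshold and rose, where 0.0157% of all tested genes did. This was Cyp4a12a, a fatty acid hydroxylase, with 763, 3466 and 7503 units in ethanol livers, against 27.8, 52.7, 118 and 12.9 units in control livers (log2 fold change 4.58 ± 0.58 (SE), adjusted p 0.0394). On the brightest probe of each gene, the next by test statistic were Cyp4a12b, its near-identical neighbour, and Mup20, a urinary pheromone protein, at 3.36 and 2.67 on the log2 scale, which did not pass (adjusted p 0.110 and 0.233 in limma). Groups did not overlap in 12 of the 16, all higher, where 4.17% of all tested genes were. The call of Cyp4a12a was lost in 9 of 14 alternatives, where 0 genes of the list passed, and 4 passed without ethanol 1. Of 22 other female-biased genes 12 were tested, 11 were lower and 1 higher, and the median was -0.99. The higher gene, Fmo2 at 0.01, was above background on no array. Sult2a1, a sulfotransferase of bile acids, passed and fell, where 0.0157% of all tested genes did. It had 5.19, 17.5 and -6.33 units in ethanol livers, against 150, 92.2, 92.0 and 191 units in control livers, and was at least 2.05-fold lower in ethanol livers (adjusted p 0.0394 in limma). Vldlr and Slco1a4, a lipoprotein receptor and an anion transporter, had log2 fold changes of -0.90 and -0.69 and did not pass. Groups did not overlap in 8 of the 12, all lower, where 4.8% of all tested genes were. In 8 of 14 alternatives 0 genes of the list passed, and 2 passed without ethanol 1 or without ethanol 3. These lists and the 10 genes were chosen with earlier results of these data known, so their counts are descriptions.

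The 21 listed genes of the growth hormone pathway, from the receptor to its targets, had 16 tested, 8 higher and 8 lower, with a median log2 fold change of -0.0014. By limma 0 passed, where 0.0157% of all tested genes passed in each direction. Groups did not overlap in 1 higher and 1 lower gene of the 16, where 4.17% and 4.8% of all tested genes were of these kinds. On the brightest probe of each gene, the largest test statistics were those of Socs2, a feedback inhibitor, with 1107, 1418 and 696 units in ethanol livers, against 3488, 3696, 2283 and 2723 units in control livers (log2 fold change -1.48, adjusted p 0.0864, and 0.0433 without the filter on dim probes), of Igfals, the carrier subunit of IGF1 in plasma (0.41, adjusted p 0.435), and of Igf1 (0.19, adjusted p 0.638). Ghr, the growth hormone receptor and the nearest relative of Prlr on the array, had 4450, 5070 and 5493 units in ethanol livers at its brightest probe, against 4554, 4824, 5197 and 5188 units in control livers. Its log2 fold change was -0.01, with an interval of -0.21 to 0.20.

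Ethanol 3 had the lowest Hao2 and the highest Selenbp2, Susd4 and Elovl3 values of the 7 animals, and the highest Ntrk2 value at its brightest probe. At the other Ntrk2 probes, all at background, another animal was highest. Ethanol 3 was neither highest nor lowest at the A1bg probes or at the bright C4a probes. It also had the highest Cyp4a12a and Mup20 values. Over all tested genes 6326 of 12769 were higher in ethanol livers, and marker lists of other liver cells differed in direction. All 9 tested Kupffer cell genes were higher, with summed levels of 5958 to 9629 units in ethanol livers and 6375 to 7264 units in control livers. All 11 stellate cell and fibroblast genes were lower, with sums of 7478 to 9043 units in ethanol livers and 8795 to 10270 units in control livers. Lists of endothelial (2 higher, 6 lower), lymphocyte (4 higher, 1 lower) and bile duct genes (2 higher, 1 lower) were mixed. At the brightest probe, 6 of 11 stellate cell and fibroblast genes were above background on every array. Only 1 of 6 lymphocyte and 1 of 6 bile duct genes with a probe were. Directions in these 3 lists therefore rest in part on values near background. Groups did not overlap in 2 of the 11 stellate cell and fibroblast genes, where 4.8% of all tested genes were lower without overlap. In the other lists of this paragraph no gene separated the groups. None of the listed cell type genes passed in limma, the sums of each list overlapped between groups, and their part in the values above was not tested.

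The genes with profiles most like a member's were found by the root mean square difference between log2 levels, each centred on its own mean, over the 7 animals and 12761 other genes. For Hao2 they were Cyp17a1, a steroid hydroxylase, at 0.18 and Mgst3, a microsomal glutathione transferase, at 0.25. Cyp17a1 gave 669, 594 and 334 units in ethanol livers, against 1579, 1173, 1021 and 1118 units in control livers. For Selenbp2 they were Alas2, the heme synthesis enzyme of red cell precursors, at 0.09 and Apol9b at 0.14. Alas2 gave 695, 1197 and 1515 units in ethanol livers, against 784, 697, 680 and 542 units in control livers. Alas2 is among the red cell markers looked for, whose 3 tested genes were all higher, with sums of 47330.5 to 55132 units in ethanol livers and 37176 to 49871 units in control livers, and their part in the Selenbp2 values was not tested. For Ntrk2 they were Sqle at 0.07 and Plekhf1 at 0.12. For A1bg they were A2ml1 at 0.47 and Gsta2 at 0.53, with SDs of 0.43 and 0.58 in log2 level among control animals, below that of A1bg. The measure describes these 7 arrays only.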

How the data were processed

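Liver RNA of 7 mice was hybridised to Illumina bead arrays, 3 ethanol and 4 control, grouped by sample title. The deposited intensity values carried a background subtraction and a scaling between arrays by the authors, as the values show. GenomeStudio is named in the submitters' processing notes, with no version or settings in the sources used here. A second table with 14 columns that match no sample label was not used. Intensities were corrected with normexp (offset 50), put on a log2 scale and quantile normalized, then fitted with lmFit and eBayes in limma 3.58.1 under R 4.3.3. Probes brighter than the array median on 3 or more arrays were tested (23829), p-values were adjusted by the Benjamini-Hochberg method over these, and the threshold was 0.05. The fit was tested on simulated data. The noise of an array was taken from its negative values, as their root mean square. Of all probes, 34885 had 1 gene symbol, 18 several and 10378 none, and symbols were updated through the Entrez ID (34807 matched) to RefSeq names of GRCm38.p6. The members and lists were chosen with earlier results of these data known. Named were every member, its paralogs, the 3 genes of each comparison list with the largest moderated statistic on their brightest tested probe, and the 2 genes nearest in profile to each member whose brightest tested probe had an SD of at least 0.3 in log2 level (Elovl3 was not tested). Other cell type lists were summed over the brightest probe per gene. The files name no genome build, so only sequence windows carry coordinates. The number of arrays limits the precision.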

Additional observations from a re-analysis of the deposited data

Results flagged for a closer look

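Dixon's ratio was computed on normalized log2 levels, over the 4 control animals, for 55 probes of the genes named. At 3 probes an animal lay farther from the others than Dixon's 95% critical value, where chance gives about 1 in 20. Units given below are deposited intensities, on which the ratio was not computed. For Elovl3 the animal was control 2, lowest with a ratio of 0.863, at -14.2 units and so below background like the other control animals. For C4b it was control 1, lowest with a ratio of 0.949 at the brightest probe, with 2678 units. For Elovl1 it was control 3, highest with a ratio of 0.9499 at probe ILMN_2723491, with 396 units. Groups of 3 were not examined in this way.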

How the results depend on the processing

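The count of probes past the threshold in limma, 5 in the main analysis, was 3 with a normexp offset of 16, 0 without normexp at a floor of 10 units, 8 without the filter on dim probes, 0 with probes above background only, 1 with trended robust variances and 24 with the replicate number as a block. Runs without 1 animal gave 0 to 27, with 27 without ethanol 1, 2 without ethanol 2, 3 without ethanol 3, 1 without control 2 and 0 without control 1, 3 or 4. Where the count was 0, between 1495 and 2086 probes had an unadjusted p under 0.05. The count of member probes was 0 in 13 of 14 alternatives (1 to 4 at an unadjusted p under 0.05), with a range of 0 to 1 over runs without 1 animal, the 1 being Selenbp2 without ethanol 1. The log2 fold changes of Hao2 (-1.47 to -0.78), A1bg, Selenbp2, Susd4 and C4a kept their sign in every alternative. Dim probes changed sign, Prom1 to -0.033 without normexp, and Ntrk2 ILMN_2553897 to -0.015 with the replicate block. Over runs without 1 animal they lay between -0.031 and 0.13 for Moxd1, -0.015 and 0.095 for Prom1, -0.026 and 0.17 for Ntrk2 ILMN_2553897 and -0.085 and 0.27 for Ntrk2 ILMN_3138904. The cause was not tested. The other male-biased list had 0 genes past the threshold (1 in the main analysis) without normexp, with probes above background only, with trended variances and without ethanol 2, ethanol 3 or any control animal, 4 without ethanol 1 and 5 with the replicate block. The female-biased list (1) had 0 in those runs except that without ethanol 3, which gave 2, as did that without ethanol 1 and the replicate block. The pathway list (0) had 1 without the filter on dim probes and 1 with the block. Median log2 fold changes of these lists ran from 0.89 to 1.39 (male-biased) and from -1.26 to -0.68 (female-biased, -0.68 without ethanol 3). Same-numbered animals of the 2 groups had correlations of deviations of -0.19, 0.085 and 0.20, and differently numbered animals had -0.28 to 0.30. With so few animals these values cannot decide whether the numbers pair the samples.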
